A study of Mus musculus with 8 samples.

Results

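The genes described here are the secreted and membrane-bound metalloproteinases of the pericellular matrix and their inhibitors: the matrix metalloproteinases (MMPs), the ADAMs, the ADAMTS and ADAMTS-like proteins, and the tissue inhibitors of metalloproteinases (TIMPs). They were chosen by gene symbol. Of 83 protein-coding genes of these families, 43 had at least 10 allele-assigned reads in a pool and are described, among 11383 protein-coding genes that met the same minimum. The cells were female mouse embryonic fibroblasts (MEFs) with an inactive X (Xi) from 129Sv4/Jae and an active X from CAST/EiJ (CAST). Reads were sorted by variants between 129S1/SvImJ and CAST, and reads of the first kind are called 129 here, so Xi reads are 129 reads. Long stretches of the autosomes yielded 129 reads alone, so both strains cannot be assumed at every autosomal gene. The 4 groups were untreated WT cells, untreated XiΔXist cells whose Xi lacks Xist, XiΔXist cells transduced with a lentiviral control hairpin (shSCR), and XiΔXist cells transduced with lentiviral hairpins against YY1 (shYY1). Both hairpin groups therefore carry the Xist deletion, the lentivirus and puromycin selection. The lines are clonal, so Xist genotype and line cannot be told apart.

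The authors pooled the 2 samples of each group before counting, which leaves 1 pool per group and no replicate spread. A ratio between pools below has an exact 95% interval that covers counting error only, and no difference was tested as an effect of the condition. Levels are allelic reads (129 plus CAST) as CPM of all autosomal allelic reads, CPM being counts scaled to a library of 1000000. Only reads that cover a variant between 129 and CAST were counted, so levels can be compared between pools for one gene but not between genes. The WT and XiΔXist pools held 24310035 and 28329701 allelic reads, against 2393545 in shSCR and 2504345 in shYY1. One read was worth 0.0533 CPM (WT), 0.0469 (XiΔXist), 0.680 (shSCR) or 0.679 CPM (shYY1). Of the 43 genes, 33, 36, 31 and 32 had 10 reads or more in these pools in turn. Xist had 35405 reads in WT and 21, 0 and 6 in the other pools. Yy1 was at 82.0, 79.5, 161 and 62.5 CPM in WT, XiΔXist, shSCR and shYY1. Fibroblast markers summed to between 5136 and 15387 CPM, although Lum was at 0 in both hairpin pools and Dcn in shSCR. Macrophage markers summed to 1.01, 1.12, 6.80 and 29.2 CPM in WT, XiΔXist, shSCR and shYY1. In the same order, the epithelial list summed to 0.854, 0.187, 0 and 1.36 CPM, and the endothelial list to 3.84, 2.90, 4.76 and 1.36 CPM. The skeletal muscle list summed to between 8.16 and 23.8 CPM, nearly all from Ttn, with Myod1 and Myog at 0, and the chondrocyte list to between 46.8 and 196 CPM, nearly all from Sox9.

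MMPs are zinc proteases made as inactive precursors and classed by what they cut: collagenases open fibrillar collagen, gelatinases cut denatured collagen, stromelysins cut proteoglycans and fibronectin and activate other MMPs, and membrane-type MMPs act at the cell surface. ADAMs shed the outer parts of membrane proteins, and ADAMTS enzymes trim procollagens or cut large proteoglycans such as versican and aggrecan. TIMPs bind the active site of MMPs, and Timp3, which is held in the matrix, also blocks several ADAMs and ADAMTS enzymes. Fibroblasts make members of each of these groups.

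Untreated XiΔXist and WT cells differed in both directions across these families. The stromelysins Mmp3 and Mmp10, the collagenase Mmp13, the collagenase relative Mmp1b, Mmp19, Adamtsl3 and the X-linked Timp1 were at least 2-fold higher in XiΔXist. Timp3, the proteoglycanases Adamts5, Adamts1 and Adamts9, and Adam22, Adamts12, Adam23 and Adam9 were at least 2-fold lower. A gene entered this count with at least 50 reads over both pools, and the fold was taken on log2(CPM + 1), which understates the change of low genes. Of 29 family genes that entered, 7 were higher, where 3.36% of all genes entered were higher, and 8 were lower, where 6.32% of all genes were lower. The other 14 lay within 2-fold, and 14 had too few reads. In such bulk samples, fewer cells that make a transcript and less transcript per cell cannot be told apart. The median log2 ratio was -0.34 for the 29 genes and -0.08 for 10712 genes. The plot of log2 ratios places every gene that entered.

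**Figure D1:**
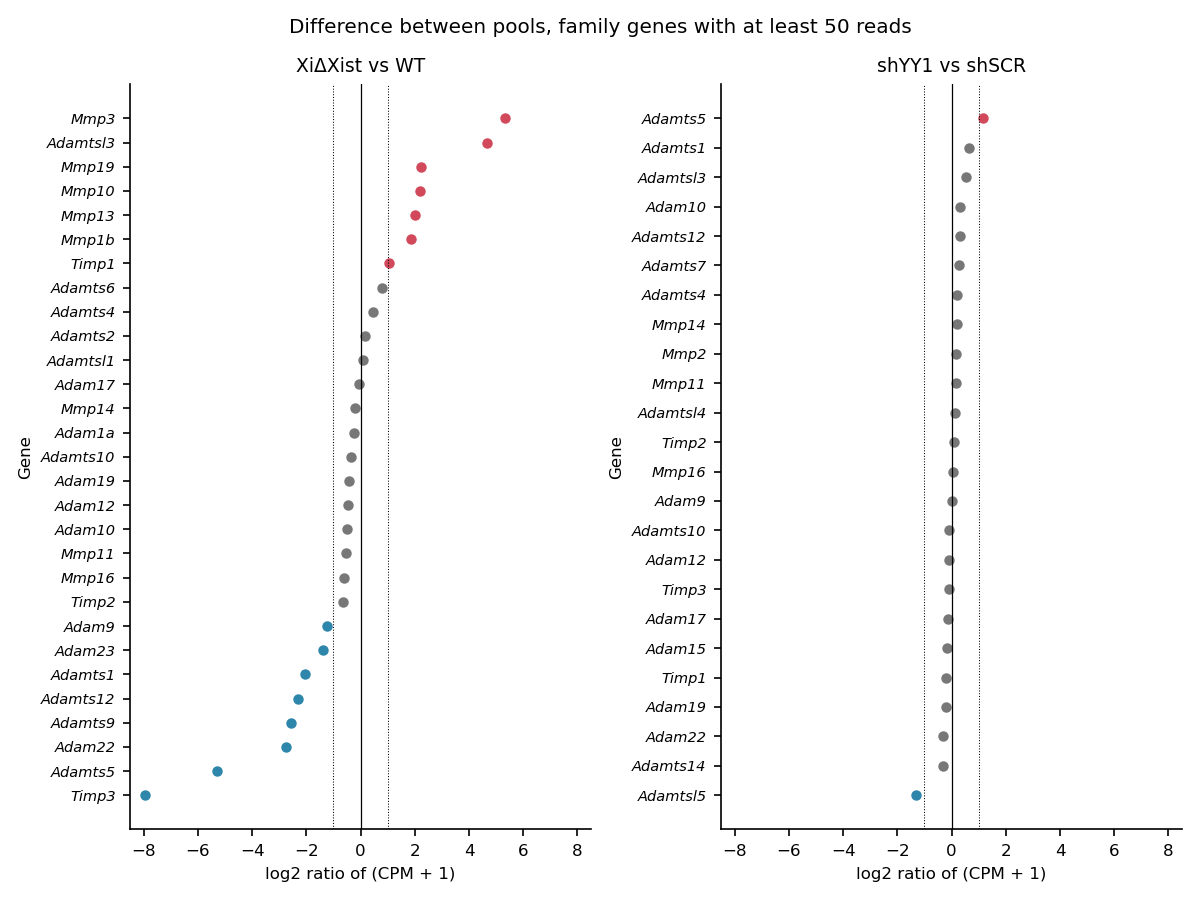
Log2 ratio of (CPM + 1) for each family gene with at least 50 reads over the pools compared, XiΔXist against WT (left) and shYY1 against shSCR (right); dotted lines mark 2-fold, red points are at least 2-fold higher and blue points at least 2-fold lower. The left panel runs from -7.94 for Timp3 to 5.32 for Mmp3, and the right panel from -1.32 for Adamtsl5 to 1.15 for Adamts5.

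The highest ratios of CPM among MMPs, XiΔXist against WT, came from 1 cluster on chromosome 9 (GRCm38, 7272514 to 7699585), which holds 9 MMP genes. Mmp3, stromelysin 1, had 6 reads in WT (0.320 CPM), 1105 in XiΔXist (51.8 CPM) and 0 in both hairpin pools. This was 162-fold higher in XiΔXist than in WT (95% interval 74.1 to 442). Mmp10, stromelysin 2, had 4, 96, 0 and 0 reads in WT, XiΔXist, shSCR and shYY1 and was 21.1-fold higher in XiΔXist than in WT (7.97 to 78.9). Only untreated XiΔXist cells showed appreciable reads for either stromelysin.

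Mmp13, the main interstitial collagenase of rodents, had 8, 100, 0 and 0 reads in the same order and was 11.0-fold higher in XiΔXist than in WT (5.36 to 26.1). Mmp1b, a rodent relative of collagenase 1, had 0, 56, 0 and 0 reads. Against the 3 reads taken as the detection floor in WT, its level in XiΔXist was 16.4-fold higher. The exact interval of the ratio began lower, at 12.9. Mmp12, macrophage elastase, had 3, 20, 0 and 0 reads, too few to enter the count. The list of 6 macrophage markers summed to 19 reads in WT and 24 in XiΔXist, with Cd68 the highest in both. Exons of Mmp12 overlap those of Mmp1b on the opposite strand. Strand was not stated for the counting, so reads of the overlap cannot be told apart. Mmp1b also has a near-identical copy, Mmp1a, which had 3 reads in XiΔXist and 0 elsewhere.

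The other MMP genes of the cluster stayed near 0. Mmp8 had 0 reads in WT and 9 in XiΔXist, Mmp20 had 2 and 0, and Mmp27 and Mmp7 had none in either. Within 1 Mb of the Mmp3 start lie 8 genes outside the family, of which 7 had enough reads. None was 2-fold higher or lower, with log2 ratios from -0.68 for Birc2 to -0.03 for Yap1. The plot of ratios by distance shows Mmp3, Mmp10, Mmp13 and Mmp1b standing well above the genes outside the family. Mmp20, Mmp27 and Mmp7 were drawn near 0, but with 2 reads or none the 1 CPM added to each level fixes them there. Their position therefore says nothing on whether they changed.

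**Figure D2:**
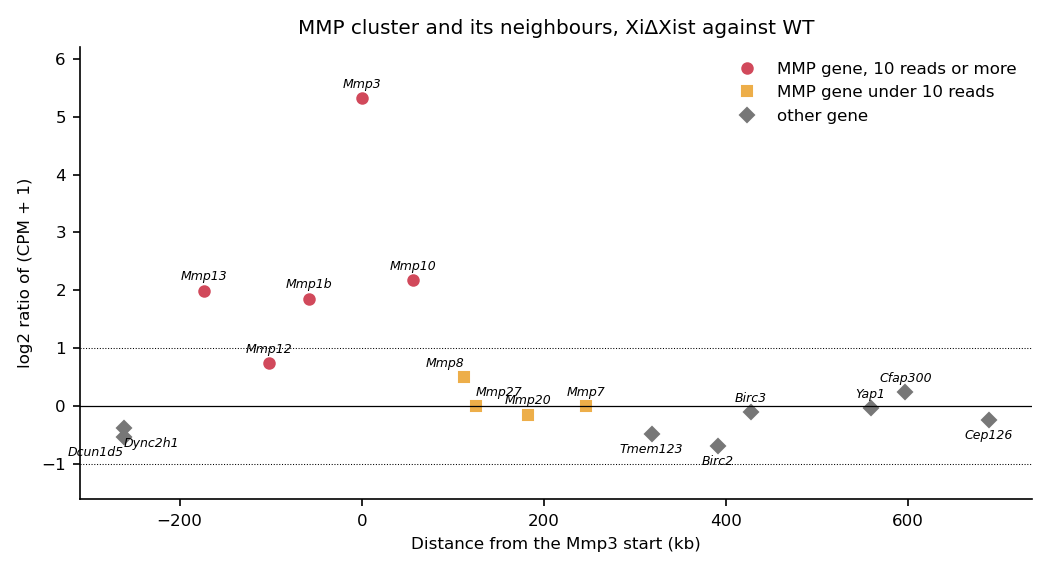
Log2 ratio of (CPM + 1), XiΔXist against WT, for genes within 1 Mb of the Mmp3 start, by distance of each gene's start from it in kb; circles are MMP genes with 10 reads or more in a pool, squares MMP genes below that, diamonds other genes, and dotted lines 2-fold. Mmp3 stands at 5.32 and Mmp10, Mmp13 and Mmp1b between 1.86 and 2.18, while no gene outside the family passes 2-fold.

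The 5 cluster genes with at least 10 reads in a pool met that minimum in XiΔXist alone, the pool where they were high. They share a sequence feature. The other MMP genes of the cluster were not searched for it, so no link between feature and level was tested. Each has the letters TGANTCA, a site known to bind AP-1 (Fos and Jun) factors, in the 250 bases before a start listed by RefSeq. This motif reads the same on both strands. It was present in 6.73% of 32536 distinct upstream stretches of that length from all genes. That rate is per stretch, whereas a family gene is counted if any of its listed starts has the motif. Because the 5 genes were kept through the pool where they were high, the rate is no measure of enrichment among them. RefSeq starts (GRCm38.p6) were matched for 28 of the 43 family genes, and 6 had the motif, the sixth being Adam19 at 1 of its 3 starts. The last 120 bases before the start of the cluster genes are shown 5′ to 3′ on the strand of the gene, because each of these genes had its most reads in the untreated XiΔXist pool, with the motif in capitals.
Mmp3 (chr9:7445702-7445821, plus strand): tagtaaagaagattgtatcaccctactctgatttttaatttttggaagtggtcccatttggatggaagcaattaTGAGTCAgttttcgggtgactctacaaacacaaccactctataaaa
Mmp10 (chr9:7502222-7502341, plus strand): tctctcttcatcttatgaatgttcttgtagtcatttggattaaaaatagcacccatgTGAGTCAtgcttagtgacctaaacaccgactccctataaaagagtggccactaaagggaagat
Mmp13 (chr9:7272394-7272513, plus strand): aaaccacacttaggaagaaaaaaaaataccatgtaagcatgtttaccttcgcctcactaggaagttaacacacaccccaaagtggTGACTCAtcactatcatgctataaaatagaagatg
Mmp1b (chr9:7388027-7388146, minus strand): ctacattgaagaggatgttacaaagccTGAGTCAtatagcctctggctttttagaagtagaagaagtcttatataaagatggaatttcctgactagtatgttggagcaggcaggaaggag
Mmp12 (chr9:7347254-7347373, plus strand): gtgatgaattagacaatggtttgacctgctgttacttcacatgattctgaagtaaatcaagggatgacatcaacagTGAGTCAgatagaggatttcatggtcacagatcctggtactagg

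The motif began 46 bases before the start in Mmp3, 63 in Mmp10, 35 in Mmp13, 93 in Mmp1b and 44 in Mmp12, where it lies before the second of 2 listed starts. A match describes the letters and is not evidence of binding. The letters CCATNTT, a core that YY1 is known to bind, were searched on both strands after the values had been seen. They were in the upstream stretch of 3 of the 28 genes, Adam17, Mmp1b and Timp1, and in 12.4% of the 32536 stretches. In Mmp1b they do not overlap the AP-1 letters.

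Outside the cluster, Mmp19, a broadly acting MMP on chromosome 10 (128790910 to 128800824), was also highest in untreated XiΔXist cells. It had 144 reads in WT and 858 in XiΔXist (7.68 and 40.2 CPM), a 5.23-fold difference (4.38 to 6.29), against 7 reads with shSCR and 25 with shYY1 (4.76 and 17.0 CPM). Its exons overlap Tmem198b and Gm47093. Mmp2, gelatinase A, had 7, 33, 65 and 73 reads, and Mmp9, the other gelatinase, at most 2. In contrast to the cluster, the membrane-type MMPs lay within 2-fold between untreated cells. Mmp14, which activates the Mmp2 precursor, was at 7.47 CPM in WT and 6.28 in XiΔXist (log2 ratio -0.22). Mmp16 was at 58.0 and 37.2 CPM (-0.63). Mmp11, stromelysin 3, was at 10.6 and 7.03 CPM (-0.53).

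TIMPs moved in different directions. Timp3 (chromosome 10, 86300372 to 86349506) had 12170 reads in WT and 35 in XiΔXist (649 and 1.64 CPM). The level in XiΔXist was 396-fold lower (284 to 569), the lowest ratio of all 29 genes. The 129 allele was 781-fold lower (411 to 1708) and the CAST allele 263-fold lower (179 to 402), so reads of both alleles were nearly lost. In the hairpin pools, which carry the same Xist deletion, Timp3 was at 454 CPM in shSCR and 420 CPM in shYY1, with 668 and 618 reads. The low Timp3 level was thus seen in the untreated XiΔXist pool and in no other. Exons of Timp3 overlap Syn3 on the opposite strand, and Syn3 itself had 59, 0, 8 and 11 reads in WT, XiΔXist, shSCR and shYY1.

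Timp1 (chromosome X, 20870166 to 20874735) had 99 reads in WT and 257 in XiΔXist (5.28 and 12.0 CPM), a 2.28-fold difference (1.80 to 2.90). Timp2, which also takes part in activating Mmp2, was at 64.5 and 40.4 CPM (log2 ratio -0.66). Timp4 had no reads in any pool.

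The proteoglycanases were mostly lower in XiΔXist than in WT. Adamts5, the main aggrecanase of mouse cartilage, had 27069 reads in WT and 770 in XiΔXist (1444 and 36.1 CPM) and was 40.0-fold lower (37.3 to 43.1). In shSCR it was at 433 CPM and in shYY1 at 964 CPM. Adamts1, its neighbour on chromosome 16, was at 81.3, 18.9, 133 and 209 CPM in WT, XiΔXist, shSCR and shYY1. It was 4.29-fold lower in XiΔXist than in WT (3.85 to 4.80). The pair spans 85793827 to 85901828, and the 1 other gene within 1 Mb with enough reads, App, had a log2 ratio of -0.70. Adamts9 had 355 reads in WT and 50 in XiΔXist, 8.08-fold lower (5.999 to 11.1). Adamts4, a further aggrecanase, lay within 2-fold at 6.88 and 9.75 CPM (0.45). Thus 3 of 4 proteoglycanases entered were at least 2-fold lower, where 6.32% of all genes were.

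Among the other ADAMTS genes, Adamts12 had 413 and 77 reads and was 6.11-fold lower in XiΔXist (4.78 to 7.89). Adamts6 and Adamts10, both tied to fibrillin microfibrils, had log2 ratios of 0.79 and -0.34. The procollagen N-proteinase Adamts2 had 37 and 50 reads (0.17). Adamtsl3, which lacks a protease domain, had 2 reads in WT and 580 in XiΔXist, 255-fold higher (70.2 to 2108), and 205 and 297 reads in shSCR and shYY1 (139 and 202 CPM). It differs from Mmp3 in being present in all 3 pools with the Xist deletion. The lower chromosome 9 MMPs were also at 0 reads in the hairpin pools, but that allows up to 2.04 CPM there. Adamtsl1, of the same protease-free group as Adamtsl3, was at 3.15 and 3.42 CPM in WT and XiΔXist.

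Of 8 ADAMs that entered, 3 were at least 2-fold lower, where 6.32% of all genes were, and 5 lay within 2-fold. All 8 log2 ratios were below 0, but that of Adam17, at -0.06, was above the median of all genes. Adam22, a protease-inactive ADAM known as a receptor of the secreted LGI proteins, had 848 and 126 reads and was 7.66-fold lower in XiΔXist (6.35 to 9.31). Adam23, another protease-inactive member, was at 33.8 CPM in WT and 12.3 CPM in XiΔXist, with 10.2 and 13.6 CPM in the hairpin pools. This was 2.76-fold lower in XiΔXist than in WT (2.38 to 3.19). Adam9, a sheddase, was at 1370 CPM in WT and between 587 and 612 CPM in the other 3 pools, and was 2.33-fold lower in XiΔXist (2.28 to 2.38). The median log2 ratio of chromosome 8, where it lies, was -0.26, and with that subtracted Adam9 fell short of 2-fold. The main sheddases of Notch and tumor necrosis factor lay within 2-fold: Adam10 was at 92.9 and 65.2 CPM (-0.50) and Adam17 at 125 and 120 CPM (-0.06). So did Adam12 (-0.45), Adam19 (-0.44) and Adam1a (-0.25).

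**Figure D3:**
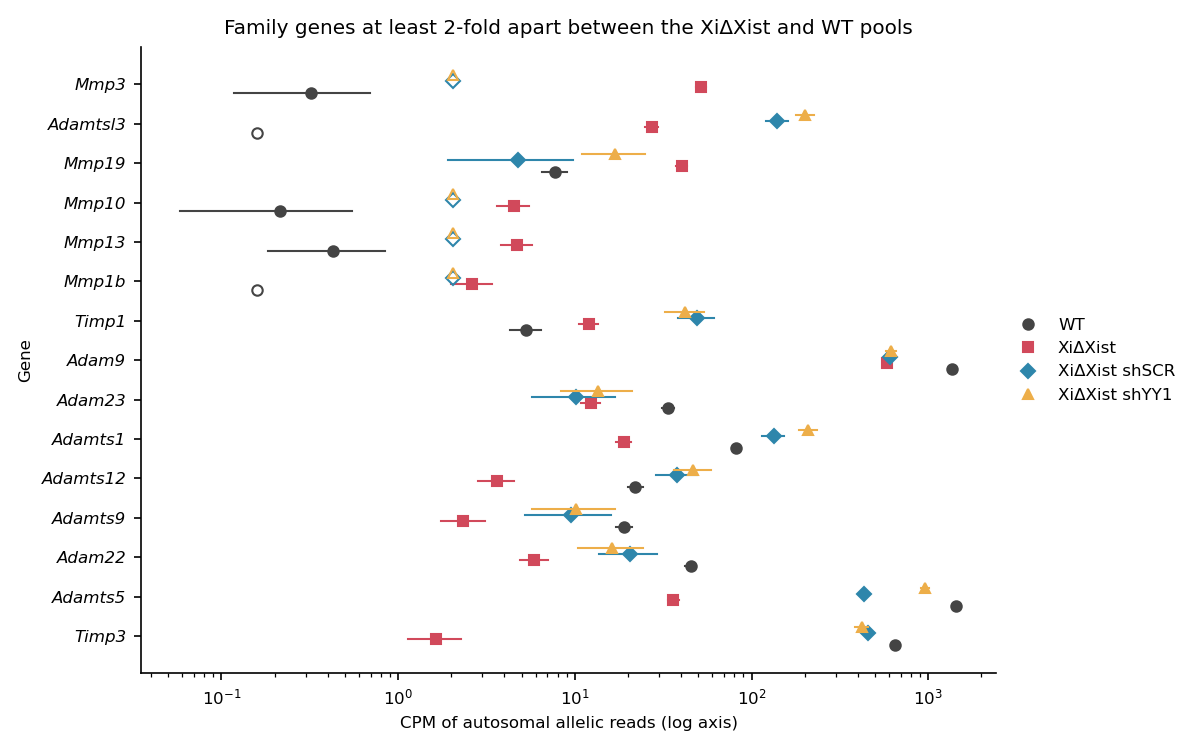
Level of each family gene at least 2-fold apart between the untreated pools, in CPM of autosomal allelic reads on a log axis, for WT (circles), XiΔXist (squares), shSCR (diamonds) and shYY1 (triangles); bars are exact Poisson 95% intervals, and open symbols mark pools with under 3 reads, drawn at the level of 3 reads. The XiΔXist square of Timp3 stands at 1.64 with the other 3 pools between 420 and 649, and Mmp3 has a filled symbol in the untreated pools only.

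Genes that activate, bind or restrain these proteases were taken from a list of 26, of which 15 had enough reads. At least 2-fold higher in XiΔXist than in WT were 2, beside 3.36% of all genes, and 3 were lower, beside 6.32% of all genes. Plau, the urokinase that generates plasmin, was 13.5-fold higher in XiΔXist than in WT (1039 and 15932 reads in WT and XiΔXist). Tfpi2, a matrix-bound inhibitor of plasmin, was 2.61-fold higher. Reck, a membrane-anchored MMP inhibitor, was 2.88-fold lower, Tspan15, which steers Adam10, 8.73-fold lower, and Tll1, a procollagen C-proteinase, 2.63-fold lower. The remaining 10, among them Bsg, Furin and Cd44, lay within 2-fold.

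The comparison of shYY1 with shSCR sets hairpins against YY1 beside the control hairpin, in cells that already lack Xist on the Xi. Yy1 was at 62.5 CPM in shYY1 and 161 CPM in shSCR, but at 79.5 CPM in untreated XiΔXist cells. The shYY1 pool was thus low in Yy1 mainly relative to its control. Most of the family differed little. Of 24 genes that entered, 1 was at least 2-fold higher, where 1.56% of all genes were, and 1 was lower, where 1.13% were. The median log2 ratio was 0.06 against -0.01 for 8218 genes. Adamts5 had 637 reads in shSCR and 1419 in shYY1 (433 and 964 CPM), a 2.23-fold higher level (2.03 to 2.45). Adamts1 beside it was 1.57-fold higher (1.31 to 1.89; 196 and 308 reads), short of 2-fold. App, in the same megabase, had a log2 ratio of 0.21. Adamtsl5, of the protease-free group, had 37 and 14 reads, 2.65-fold lower (1.40 to 5.30), and at most 3 reads in the untreated pools.

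Adamtsl3 was 1.45-fold higher in shYY1 (1.21 to 1.74). The TIMPs lay near even, with ratios of 1.05 (0.982 to 1.12) for Timp2, 0.924 (0.827 to 1.03) for Timp3 and 0.860 (0.603 to 1.23) for Timp1. Adam9 had a ratio of 1.00 (0.915 to 1.10), Mmp14 1.14 (0.960 to 1.35) and Mmp2 1.12 (0.792 to 1.59). None of these 6 intervals reached 2-fold in either direction. Mmp19 had 7 and 25 reads and was too low to enter. Mmp3, Mmp10, Mmp12, Mmp13 and Mmp1b had 0 reads in both pools, which allows up to 2.04 CPM, and therefore say nothing on YY1. Of the 26 associated genes, 13 entered, with 1 higher, beside 1.56% of all genes, and 1 lower, beside 1.13% of all genes. Plat, the tissue plasminogen activator, was 2.95-fold higher (58 and 171 reads), and Furin, which activates membrane-type MMPs and ADAMs, was 2.16-fold lower (173 and 80 reads).

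The shSCR pool differed widely from untreated XiΔXist cells, at a far lower depth, and many genes outside the family did too. Of 32 family genes entered, 19 were at least 2-fold higher in shSCR, where 44.4% of all genes were, and 7 were lower, where 21.0% of all genes were. Of these 7, 5 were at 0 reads in shSCR, and for each of these 5 except Mmp3 the exact interval did not exclude a ratio under 2-fold. The median log2 ratio was 1.91 for the family and 0.67 for 10395 genes. The median over autosomal genes was 0.70, and changes are best read relative to it.

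The difference moved with the GC content of the transcript. All genes that entered were split by GC content into 5 bins of equal size, bin 1 being the lowest. The median log2 ratio of shSCR against XiΔXist was -0.99 in bin 1 and 3.63 in bin 5. Between the lowest and the highest bin, cut anew for each comparison, it ran only from -0.07 to -0.12 for XiΔXist against WT and from 0.04 to -0.11 for shYY1 against shSCR. Of the 19 higher family genes, 9 were in bin 5, where 11 family genes entered and 88.1% of all genes were higher. A further 6 were in bin 4, where all 6 family genes and 67.2% of all genes were higher. With the median of the same bin subtracted, a correction chosen after seeing the data, 13 family genes were higher and 10 lower.

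**Figure D4:**
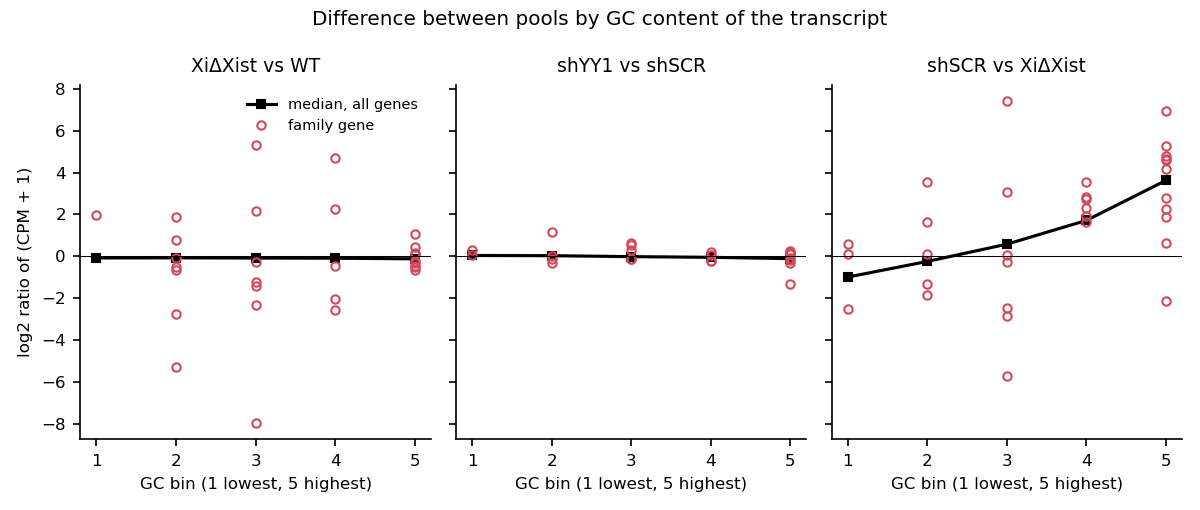
Log2 ratio of (CPM + 1) of family genes (circles) and the median of all genes (squares and line) by bin of transcript GC content, from lowest (1) to highest (5), for the 3 comparisons. The line is near 0 in the first 2 panels and climbs from -0.99 to 3.63 for shSCR against XiΔXist.

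The largest ratios of shSCR to untreated XiΔXist were 277-fold for Timp3 (197 to 401) and 204-fold for the procollagen N-proteinase Adamts14 (142 to 301; 32 reads in XiΔXist and 449 in shSCR). Timp3 is in bin 3, whose median log2 ratio was 0.58, and its own log2 ratio was 7.43. Adamts5, in bin 2 with a median of -0.24, was 12.0-fold higher (10.8 to 13.3). Adamts14, by contrast, is in bin 5. So are Adamtsl4 (89.8-fold), Adam15 (48.8-fold), Mmp2 (28.6-fold), Timp2 (27.9-fold), Mmp14 (27.8-fold), Adamts10 (7.53-fold), Adamts2 (6.38-fold) and Mmp11 (4.06-fold). Against the median log2 ratio of bin 5, Adamts14 was 3.31 higher, Adamtsl4 1.66, Timp2 1.14, Adam15 1.03, Mmp14 0.97 and Mmp2 0.52. In contrast, Adamts10 was at -0.85, Adamts2 at -1.37 and Mmp11 at -1.75, so these last 3 were lower than genes of like GC content.

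Adam19 was 12.0-fold higher, Adamts12 10.6-fold, Adam12 7.39-fold, Adamts1 7.04-fold, Adamtsl3 5.13-fold, Timp1 4.07-fold, Adamts9 4.06-fold and Adam22 3.45-fold. Against the median log2 ratio of the same GC bin, Adamts12 was 2.50 higher, Adam22 1.87, Adam19 1.81, Adam12 1.11 and Adamts1 1.03. Adamtsl3 was only 0.60 higher, Timp1 0.22 higher and Adamts9 at -0.06, so these last 3 lay within 2-fold of genes of like GC content. The 7 lower genes were Mmp3, Mmp10, Mmp13 and Mmp1b, all at 0 reads in shSCR, Adamtsl1, also at 0, Mmp19 and Adamts6. Against a floor of 3 reads, Mmp3 was 25.4-fold lower (exact interval from 20.6), Mmp13 2.30-fold (from 1.83) and Mmp10 2.21-fold (from 1.76). Adamtsl1 was 1.68-fold lower (from 1.33) and Mmp1b 1.29-fold lower (from 1.01). Mmp19 was 8.45-fold lower (4.08 to 21.1) and Adamts6 2.67-fold (1.55 to 5.05). Mmp3 and Mmp19 are in bin 3 of GC content. This comparison shares the untreated XiΔXist pool with the comparison to WT, so a value particular to that pool appears in both with opposite sign. Of the associated genes, 15 entered, 11 were higher, beside 44.4% of all genes, led by Lrp1, an uptake receptor for MMPs and TIMPs (272-fold), and 3 were lower, beside 21.0% of all genes: Tfpi2, Plau and Cd44. Their GC content was not examined.

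The 129 share of a gene's allelic reads had to be read against its surroundings, since long stretches of the autosomes yielded 129 reads alone. Of 23 family genes in WT with 30 reads and enough neighbours, 11 had a 129 share of at least 90%, and for 9 of these the median share of the genes within 10 Mb was also at least 90%. This was so of 15 of 17 genes in XiΔXist, 10 of 12 in shSCR and 10 of 12 in shYY1. The chromosome 9 MMPs, the Adamts1 and Adamts5 pair, Adam9, Adam12, Adamts10, Adamtsl3, Mmp16 and Mmp19 belong to this class, and their alleles cannot be compared.

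A gene was taken as apart from its neighbours at a difference of at least 20 percentage points from their median. In WT 4 of 23 genes were apart, where 15.2% of all genes were, in XiΔXist 6 of 30 (16.2% of all genes), in shSCR 3 of 22 (12.8%) and in shYY1 4 of 20 (13.4%). The shares in the family were thus near those of all genes. Adam19 stood apart in every pool, with a 129 share of 100% in WT, 99.4% in XiΔXist and 100% in both hairpin pools, while its neighbours on chromosome 11 had medians of 62.0%, 53.5%, 55.5% and 56.4%. The 3 CAST reads of Adam19 were all in XiΔXist, of 463 reads. Its exons overlap 2 other annotated genes. Mmp2 also gave 129 reads alone, 33 in XiΔXist, 65 in shSCR and 73 in shYY1, beside neighbours on chromosome 8 at 67.9%, 59.7% and 61.4%. Adamts14 leaned to CAST, with a 129 share of 18.8%, 25.6% and 36.7% in the same pools against neighbours at 49.3%, 56.5% and 57.6%. Adamts9 was apart in WT and XiΔXist, at 80.3% and 74.0% against 53.6% and 51.3%.

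**Figure D5:**
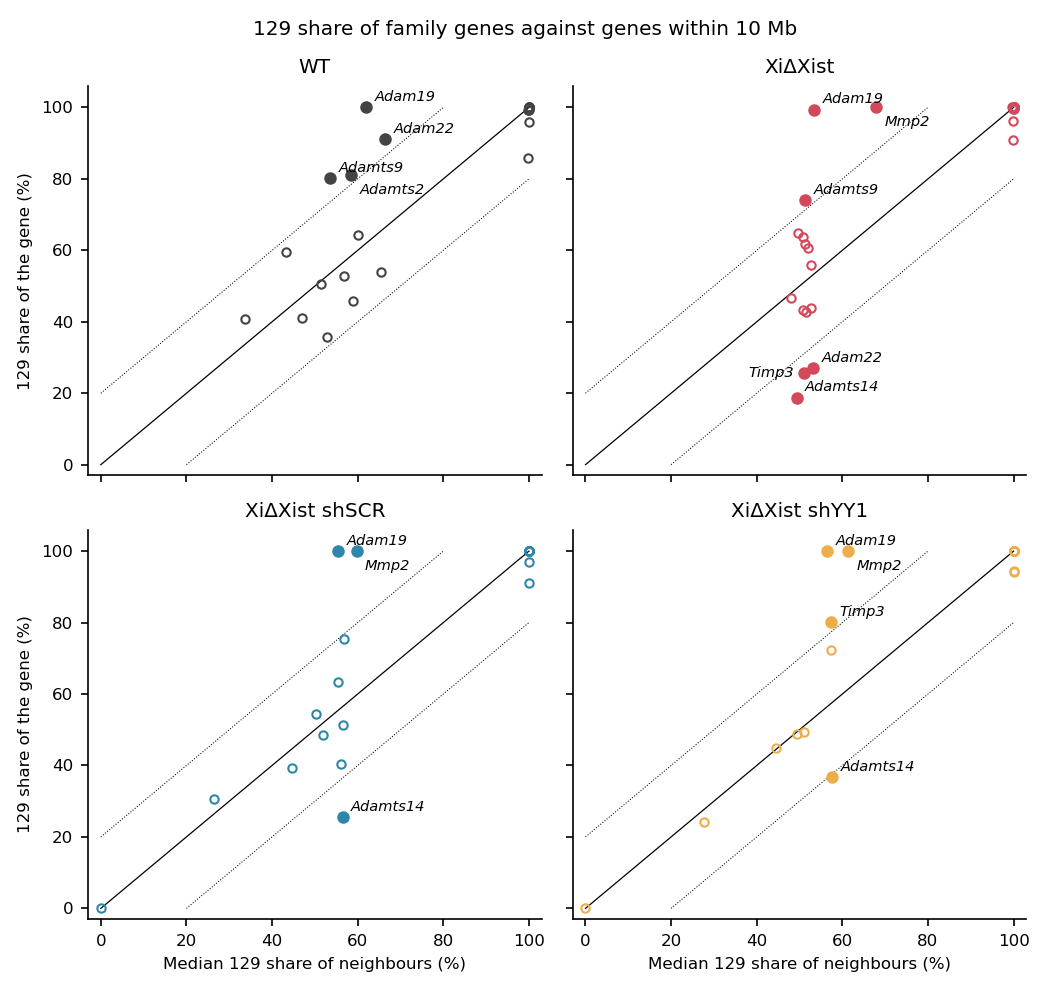
129 share of each family gene in percent against the median 129 share of autosomal genes within 10 Mb, in each pool; the solid line marks equality, dotted lines a difference of 20 percentage points, and filled, named points lie beyond it. Adam19 stands at 99.4% or more in each pool with neighbours between 53.5% and 62.0%, while Timp3 lies at 25.7% in XiΔXist and 80.1% in shYY1.

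Between pools, the 129 share was compared by a two-sided Fisher's exact test of the reads, adjusted by Benjamini-Hochberg over all genes, with a change of at least 10 percentage points; it compares these pools, not the conditions. For XiΔXist against WT 28 family genes entered. The share was higher for 1 gene, where 4.18% of all genes were higher, and lower for 2, where 6.81% were lower. Adam10 went from 40.8% in WT (710 of 1741 reads) to 63.8% in XiΔXist (888 of 1392; Fisher's exact test, adjusted p = 4e-36). Its neighbours went from 33.8% to 50.8%, and the call was lost when their change was subtracted. CAST reads of Adam10 were 2.33-fold lower (2.09 to 2.60) and the ratio of 129 reads was 1.10 (0.994 to 1.21). Adam22 went from 91.2% (773 of 848 reads) to 27.0% (34 of 126; Fisher's exact test, adjusted p = 1.2e-51) while its neighbours on chromosome 5 went from 66.4% to 53.2%. Timp3 went from 50.7% in WT to 25.7% in XiΔXist (9 of 35 reads; Fisher's exact test, adjusted p = 0.021).

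For shYY1 against shSCR, none of 31 family genes passed in either direction, where 0.588% of all genes were higher and 0.498% lower. At an unadjusted p under 0.05 there were 5. Adamts14 came nearest, at 25.6% in shSCR and 36.7% in shYY1 (Fisher's exact test, adjusted p = 0.06). For shSCR against XiΔXist, 29 entered. The share was higher for Timp3, Adam22 and Adamtsl4, where 9.62% of all genes were higher, and lower for Adam17 and Mmp14, where 8.96% were lower. Timp3 went from 25.7% to 75.3% (503 of 668 reads; Fisher's exact test, adjusted p = 5.7e-08) and stood at 80.1% in shYY1, so its predominant allele differed between the XiΔXist pools. Mmp14 went from 64.9% in XiΔXist to 0 of 257 reads in shSCR, and was at 0 of 293 in shYY1. The median of its neighbours on chromosome 14 was also 0% in both hairpin pools. Adam17 went from 46.6% to 30.6%, as its neighbours went from 48.0% to 26.3%, and its call was lost when their change was subtracted. Adam22 reached 63.3% on 30 reads and Adamtsl4 97.0% on 99.

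Timp1 is the one X-linked gene of the set. In WT all 99 reads came from the active CAST X, which allows an Xi share of up to 3.03%, taking 3 reads as the limit. In XiΔXist 16 of 257 reads came from the Xi, a share of 6.23% (Wilson 95% interval 3.87 to 9.87). Both hairpin pools had 0 Xi reads, of 72 in shSCR and 62 in shYY1, which allows up to 4.17% and 4.84% by the same limit of 3 reads. The Wilson upper bounds at 0 reads were 3.74% in WT, 5.07% in shSCR and 5.83% in shYY1. Between shSCR and XiΔXist the Xi share did not pass (Fisher's exact test, adjusted p = 0.11). By Fisher's exact test the XiΔXist and WT pools differed with p = 0.0079, adjusted p = 0.042, although the change was below 10 percentage points and was not called. That Timp1 had a few Xi reads in XiΔXist was known when the family was chosen. These p-values therefore describe the reads and are not independent support. The Xi reads amounted to 0.750 CPM, and active X reads were at 5.28 CPM in WT and 11.3 CPM in XiΔXist. Most of the higher Timp1 level in XiΔXist was thus on the active X. Among X-linked genes with enough reads, 11.7% (WT), 16.8% (XiΔXist), 12.0% (shSCR) and 13.6% (shYY1) had an Xi share of at least 5%. Within 2 Mb of Timp1, 14 of 21 genes in WT and 13 of 20 in XiΔXist had no Xi read.

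Across the 4 pools the summed level of the family was 4141 CPM for WT, 1187 for XiΔXist, 4567 for shSCR and 5208 CPM for shYY1. A few genes carried these sums: Adamts5, Adam9 and Timp3 gave 1444, 1370 and 649 CPM in WT, and Timp2 alone gave 1128 and 1185 CPM in the hairpin pools. Since only reads that cover a variant count, the sums weight genes unequally and do not rank their expression. The shift with GC content between hairpin and untreated pools was not removed from them. Family genes that did not reach 10 reads in any pool were 21 ADAMs with at most 9 reads, 4 membrane-type MMPs, 5 further MMPs, 6 ADAMTS genes, Mmp8, Mmp9, Adamtsl2 and Timp4. They could not be described at this depth of variant-covering reads. Of the 43 genes, Adam4 had between 19 and 25 reads in each pool, Mmp23 had 16 in each hairpin pool and at most 4 in untreated cells, and Adamts7 had 6 and 16 reads in untreated WT and XiΔXist cells, and 33 and 40 with shSCR and shYY1. Adam5, Adam32, Adamts18, Adamts19 and Adamts20 had at most 20 reads in any pool.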

How the data were processed

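RNA-seq reads of 8 MEF samples were processed by the authors: alignment to an N-masked mm10 genome with TopHat, removal of alignments with a mapping quality under 30, sorting by allele with SNPsplit, pooling of the 2 samples of a group, and counting over exons with featureCounts 1.6.3. The deposited values are whole-number read counts per gene, 1 column per allele and pool. The annotation release and strand setting are not given in the sources used here. Counts of 129 and CAST were summed and scaled to autosomal allelic reads. Of 46078 gene IDs, 45229 matched GENCODE M21, which gave symbols and positions.

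Genes and lists were chosen with earlier results of these data known. Named were the TIMPs, genes past 2-fold in any comparison (the 15 largest per direction), genes with a called or repeatedly apart 129 share, and the 20 with most reads in untreated cells; the other genes named, and single genes outside the family, were chosen after their values were seen. GC content is that of the longest transcript. Ratios carry exact conditional intervals, and shares were tested with scipy 1.17.1. With 1 pool per group, p-values compare pools of reads, and PCR duplicates are not separated. Promoter sequences are from RefSeq (GRCm38.p6).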

Additional observations from a re-analysis of the deposited data

How the results depend on the processing

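Of 77 results recomputed under another setting, some changed only the interval around the Timp1 Xi share, which cannot move the share itself. Counting these, 11 moved further and 0 reversed. The other 66 kept their direction and stayed close to the value given, counts within 1.5 times and medians within 0.1. Within that range, the genes higher in shSCR than in XiΔXist numbered between 13 and 25 and the lower ones between 5 and 10, and the genes higher in XiΔXist than in WT numbered 5 without exon overlaps. The median log2 ratio of XiΔXist against WT was -0.14 with no minimum of reads, -0.20 with the chromosome median subtracted and -0.22 with the median of the same GC bin subtracted, a setting chosen after seeing the data; the counts of 7 higher and 8 lower genes held under that setting. With no minimum of reads, 3 genes were higher and 2 lower in shYY1 than in shSCR. For shSCR against XiΔXist the median was 1.21 with the median of ratios set to 0, 0.84 with the chromosome median and 0.45 with the GC bin subtracted, and 2.26 without genes whose exons overlap another gene. With the change of neighbours within 10 Mb subtracted, 0 genes had a higher 129 share for XiΔXist against WT, and 1 a lower share for shSCR against XiΔXist. The cause of these shifts was not tested beyond the setting itself. No paired analysis was possible because the replicates were pooled before counting, and for the same reason no replicate could be left out. In the hairpin pools 3 reads correspond to 2.04 CPM, against 0.160 and 0.141 CPM in WT and XiΔXist, which limits what can be said of genes at 0 there.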
